A study of Mus musculus with 4 samples.

Results

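Kinesins are motor proteins that use ATP to walk along microtubules or to take microtubules apart. The family is usually divided by work. Mitotic kinesins build the spindle, align and separate the chromosomes and close the cell after division, and their RNA is made mainly in dividing cells. Transport kinesins carry vesicles, mitochondria and other cargo toward microtubule plus ends in all cells, and they are known above all from axons and glia. The kinesin RNAs described here are all rows with a gene symbol of Kif followed by a digit in the 2 deposited gene tables, which were 38 of 35604 rows in each. A kinesin was measured where the table gave it status OK and at least 1 FPKM (fragments per kilobase of transcript, scaled to the mapped fragments of the library) in either library, which left 26 of 12676 measured genes in culture and 30 of 15550 in tumours. Of these, 11 were mitotic, 10 transport and 5 other kinesins in culture, and 11, 11 and 8 in tumours.

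The RNA came from ESC-FC1801 Schwann cells, derived from FVB/N mouse embryos whose 2 floxed Nf2 alleles were deleted in culture with a Cre adenovirus. All 4 libraries thus share the loss of Nf2, and there is no library with intact Nf2. The cultured cells, kept in serum-free N2 medium with neuregulin and forskolin, received DMSO or 1 µM NXD30001, an HSP90 inhibitor per the series, for 24 h. Mice with a tumour grown from the line received vehicle, or NXD30001 at 100 mg/kg, 3 times a week for 4 weeks. The age and strain of the mice, the time from the last dose and the number of tumours in a library are not given in the sources used here, and the tumours also hold host cells.

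Each group has 1 library, so no value has a replicate error, no test was run, and "higher" and "lower" describe these libraries. A difference is log2(FPKM + 1) of the treated minus the untreated library, which understates the change of low genes, and 2-fold means an absolute difference of at least 1 on that scale. The implied error is the SE (log2) behind the statistic in the authors' deposited table. It covers no biological spread. It belongs to the fold without the added 1, so a difference divided by it understates the deposited statistic, most for low genes. Its median was 0.76 for culture genes and 0.35 for tumour genes between 10 and 30 FPKM. FPKM hides depth, but genes whose implied error is that of 1 fragment in each library put the treated library at 1.05 times the depth of the untreated one in culture (40 genes) and 1.19 times in tumours (56 genes). The median difference of all measured genes was -0.25 in culture and -0.03 in tumours. Of the 12 Schwann cell markers, 10 were measured in culture and 10 in tumours, and Fabp7 was listed at 0 in all 4 libraries. Of the 8 endothelial markers only Tek was measured in culture (0.0324 and 2.18 FPKM), and of the 8 macrophage markers only Cd68 (2.32 and 1.93 FPKM).

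Promoters of the mitotic kinesins held letters of a cell cycle element more often than all promoters did. Those of the transport kinesins lay near or below the share of all promoters. The cell cycle genes homology region (CHR) is a promoter element bound by the DREAM and MuvB complexes, through which many G2 and M phase genes are held off in resting cells and switched on in dividing ones, often beside CCAAT boxes bound by NF-Y. RefSeq promoters of GRCm38.p6, 250 bases before to 50 after a start, were found for 31 kinesin symbols with 35 promoters. The start was the gene start given by RefSeq for 10 of the 35. None was found for Kif5a, Kif5b, Kif13b, Kif19a, Kif19b, Kif20a, Kif21b and Kif25. The 11 mitotic promoters thus lack Kif20a and include Kif2b, which was not measured in culture or tumours. The search covered TTTGAA and TTTAAA for the CHR, CCAAT, and TTTCCCGC, TTTGGCGC, TTTCGCGC and TTTGCCGC for E2F sites, on both strands. TTTAAA is its own reverse complement. A CHR match stood in 9 of 11 mitotic promoters, 1 of 12 transport promoters (Kif1a) and 2 of 12 other kinesin promoters, against 27.6% of 32851 promoters. Within 50 bases of the start, a window chosen after seeing the data, a CHR match stood in 8 of 11 mitotic, 1 of 12 transport and 1 of 12 other promoters, against 8.28% of all. CCAAT stood in 7 of 11, 4 of 12 and 4 of 12, against 37.4%. These counts are of promoters, and Kif1a, Kif1b, Kif2a and Kif9 have 2 each, which overlap for the last 3. The 4 transport promoters with CCAAT belong to 3 genes, since both Kif1b promoters hold the same boxes. An E2F match was found in 2 mitotic promoters and in no transport or other one, against 2.26%.

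The base composition of the classes differed. The median GC content was 59.7% for mitotic, 68.2% for transport and 65.7% for other kinesin promoters, and 52.7% for all. Among the 21050 promoters within the GC range of the mitotic kinesins (43.7% to 65%), 6.93% had a CHR match within 50 bases of the start. Among the 17921 within the range of the transport kinesins (51.7% to 86.7%), the share was 3.98%. For a CHR match anywhere in the promoter the shares were 25.3% in the mitotic range and 14.3% in the transport range. A match describes letters and does not show a bound site.

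The promoters below are shown because their genes lead the results. They run 5′ to 3′ on the gene's strand, with the start as base 251 and every match to the listed motifs in capitals, in either orientation. Kif11, Kif23 and Kif4 hold a CHR match and a CCAAT match near the start. Kif15 holds a CHR match that adjoins an E2F match, and Kif18a an E2F match alone. Kif13a and Kif3a are transport kinesins, the first with no match and the second with 1 CCAAT match.
Kif11 (chr19:37376132-37376431, + strand): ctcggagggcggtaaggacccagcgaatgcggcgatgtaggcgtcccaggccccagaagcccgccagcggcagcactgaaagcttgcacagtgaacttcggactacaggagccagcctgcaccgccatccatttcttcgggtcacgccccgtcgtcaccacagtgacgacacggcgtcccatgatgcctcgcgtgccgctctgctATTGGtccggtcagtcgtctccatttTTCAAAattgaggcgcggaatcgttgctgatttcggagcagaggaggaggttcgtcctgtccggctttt
Kif23 (chr9:61946750-61947049, - strand): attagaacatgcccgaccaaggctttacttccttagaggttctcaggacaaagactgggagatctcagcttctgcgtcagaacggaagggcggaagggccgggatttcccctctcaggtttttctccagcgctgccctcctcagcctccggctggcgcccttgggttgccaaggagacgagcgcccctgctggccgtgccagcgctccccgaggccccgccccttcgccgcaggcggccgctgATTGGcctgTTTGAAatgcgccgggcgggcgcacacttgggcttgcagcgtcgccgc
Kif4 (chrX:100625815-100626114, + strand): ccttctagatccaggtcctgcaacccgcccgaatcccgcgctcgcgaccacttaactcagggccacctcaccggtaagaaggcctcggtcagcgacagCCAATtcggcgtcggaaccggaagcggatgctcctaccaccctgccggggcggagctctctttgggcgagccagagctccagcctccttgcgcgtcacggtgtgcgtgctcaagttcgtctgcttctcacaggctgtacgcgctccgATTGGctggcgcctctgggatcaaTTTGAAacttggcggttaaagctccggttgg
Kif15 (chr9:122950831-122951130, + strand): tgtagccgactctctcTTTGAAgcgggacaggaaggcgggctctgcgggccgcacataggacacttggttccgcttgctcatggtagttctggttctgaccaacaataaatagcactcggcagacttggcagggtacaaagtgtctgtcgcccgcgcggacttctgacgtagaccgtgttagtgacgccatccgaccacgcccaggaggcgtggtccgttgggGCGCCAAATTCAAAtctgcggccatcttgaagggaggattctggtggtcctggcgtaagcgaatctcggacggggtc
Kif18a (chr2:109280488-109280787, + strand): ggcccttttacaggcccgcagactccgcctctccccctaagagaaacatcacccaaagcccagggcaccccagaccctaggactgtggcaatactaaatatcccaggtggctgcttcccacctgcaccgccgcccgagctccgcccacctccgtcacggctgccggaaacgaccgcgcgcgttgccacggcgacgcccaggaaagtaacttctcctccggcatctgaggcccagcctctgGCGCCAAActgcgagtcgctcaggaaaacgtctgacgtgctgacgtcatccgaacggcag
Kif13a (chr13:46929669-46929968, - strand): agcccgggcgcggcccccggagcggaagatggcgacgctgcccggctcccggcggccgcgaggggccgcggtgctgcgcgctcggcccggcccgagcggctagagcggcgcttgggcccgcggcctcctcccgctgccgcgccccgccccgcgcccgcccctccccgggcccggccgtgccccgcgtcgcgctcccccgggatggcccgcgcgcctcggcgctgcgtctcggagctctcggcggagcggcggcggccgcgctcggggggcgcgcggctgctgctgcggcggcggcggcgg
Kif3a (chr11:53567119-53567418, + strand): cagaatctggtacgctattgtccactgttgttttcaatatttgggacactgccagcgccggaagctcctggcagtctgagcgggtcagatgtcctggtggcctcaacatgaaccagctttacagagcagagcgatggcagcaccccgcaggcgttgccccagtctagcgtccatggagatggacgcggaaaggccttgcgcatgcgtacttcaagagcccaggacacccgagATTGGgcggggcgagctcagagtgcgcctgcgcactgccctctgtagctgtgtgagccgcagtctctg
The CHR match nearest the start began 19 bases before the start in Kif11 and Kif15, 17 before in Kif22 and 42 before in Kif14. It began at base 3 after the start in Kif23, base 4 in Kif18b, bases 8 and 14 in Kif20b and base 20 in Kif4. Farther matches began 234 bases before the start in Kif15, 228 in Kif14 and 215 in Kif22. In Kif2c both matches lay far off, 103 and 234 bases before the start. The mitotic promoters with no CHR match were those of Kif18a and Kif2b.

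In culture, every measured kinesin classed as mitotic was far lower with NXD30001, while transport kinesins lay on both sides of 0. The classes were drawn up with earlier results of these data known. All 11 mitotic kinesins were at least 2-fold lower, in a table where 24.8% of measured genes were, with a median difference of -3.77 (-3.52 relative to the median of all genes). Kif2a, which also acts at spindle poles, was classed as other and lay within 2-fold. With Kif2a counted as mitotic, 11 of 12 were at least 2-fold lower. The authors' deposited table called all 11 classed as mitotic lower and 7.14% of measured genes lower. The treated levels of these 11 were between 1.82% and 12.1% of their DMSO levels. Of the 10 transport kinesins, 4 were at least 2-fold higher, against 12.6% of measured genes, 1 was 2-fold lower and 5 lay within 2-fold, with a median of 0.61. The mitotic median minus the transport median was -4.39. No test of that gap was possible with 1 library per group.

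The kinesins that hold the spindle poles apart were far lower. Kif15 (ENSMUSG00000036768, chromosome 9 from 122860182 to 122927843, mm9), a kinesin-12 that helps to hold spindle poles apart, was at 61.0 FPKM in DMSO cells and 1.11 FPKM in treated cells (difference -4.88, implied error 0.86). Only 1.02% of measured genes had a more negative difference. Kif11 (ENSMUSG00000012443, chromosome 19 from 37450893 to 37496349, mm9), the kinesin-5 that slides antiparallel microtubules apart to make a bipolar spindle, was the most abundant of the 11, at 71.8 and 4.26 FPKM (difference -3.79, implied error 0.78). Both thus stood well above the median measured gene (11.5 FPKM) with DMSO and below it (8.61 FPKM) with NXD30001.

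Kinesins that act on chromosomes and microtubule ends were lower to a similar degree. Kif18a, a kinesin-8 that damps the movements of chromosomes at the metaphase plate, was at 34.0 and 0.696 FPKM (difference -4.37, implied error 0.67). Its relative Kif18b, which limits astral microtubules, was at 19.4 and 0.495 FPKM (-3.77, implied error 0.996). Kif2c, a kinesin-13 that takes microtubules apart at centromeres, was at 18.8 and 0.933 FPKM (-3.36, implied error 0.98). The same held for the chromokinesin Kif4, which binds chromosome arms and the midzone, at 42.0 and 1.83 FPKM (-3.93, implied error 0.83). The other chromokinesin, Kif22, was the least abundant of the 11 with DMSO and had the smallest difference, at 6.95 and 0.841 FPKM (-2.11, implied error 0.84). Kif2b, a further mitotic kinesin-13, was listed at 0 in all 4 libraries.

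The kinesins of cytokinesis were lower as well. Kif23 (ENSMUSG00000032254, chromosome 9 from 61765087 to 61794581, mm9), the motor of the centralspindlin complex, was at 38.8 and 1.32 FPKM (difference -4.10, implied error 0.76). Kif20a, which brings the chromosomal passenger complex to the midzone, was at 26.7 and 1.43 FPKM (-3.51, implied error 0.90), and Kif14, a partner of citron kinase, at 18.2 and 1.06 FPKM (-3.22, implied error 0.73). Kif20b was at 60.03 FPKM with DMSO and kept the highest treated level of the class, 5.69 FPKM (-3.19, implied error 0.69). Together the 11 mitotic kinesins summed to 398 FPKM with DMSO and 19.7 FPKM with NXD30001, or 4.94% of the DMSO sum. The loci of Kif18a, Kif4, Kif11, Kif20a and Kif20b are each given for another row too, and which row their reads belong to is uncertain. Without the kinesins that share a locus, 6 mitotic kinesins were left and all 6 were at least 2-fold lower.

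Their partners were lower too. Of 16 listed mitotic partners, 15 were measured and all 15 were at least 2-fold lower (median -3.38), against 24.8% of measured genes. The authors' deposited table called 14 of them lower, against 7.14% of measured genes. Nusap1, a spindle microtubule bundler, was at 340 and 3.15 FPKM. Aurkb, the kinase carried by Kif20a, was at 110.05 and 2.12 FPKM. Ccnb1, cyclin B1, was at 52.9 and 1.46 FPKM, and Cit, the citron kinase that binds Kif14, at 20.3 and 0.157 FPKM. Cenpe, a kinetochore kinesin whose symbol lies outside the Kif series, was at 206 and 11.8 FPKM (-4.01). It was the only measured member of the list of C-kinesins and Cenpe in culture. The 8 proliferation markers summed to 1667 and 144 FPKM, all 8 being lower, with Ccna2 at 433 and 12.97 FPKM and Top2a at 505 and 31.2 FPKM. Whether fewer dividing cells or less RNA per dividing cell lies behind such values cannot be told apart in bulk RNA.

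Genes that act at the CHR and related promoter sites were measured beside the motors. Of 20 listed regulators, 19 were measured in culture, 15 below 0 and 7 at least 2-fold lower (median -0.75). Of all 12676 measured genes 7530 lay below 0 and 24.8% were at least 2-fold lower. E2f8, a repressor of the E2F family, was at 34.4 and 0.358 FPKM and E2f3, an activator, at 101.8 and 7.10 FPKM. Foxm1, which joins the MuvB complex in G2, was at 75.6 and 8.66 FPKM. Rbl1, the pocket protein p107, was at 12.9 and 0.910 FPKM. E2f8, E2f3, Foxm1 and Rbl1 each have a locus that is given for another row too. E2f3, with an implied error of 1.53, was not called in the authors' deposited table, unlike E2f8, Foxm1 and Rbl1. The part of these genes in the kinesin values was not tested.

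**Figure D1:**
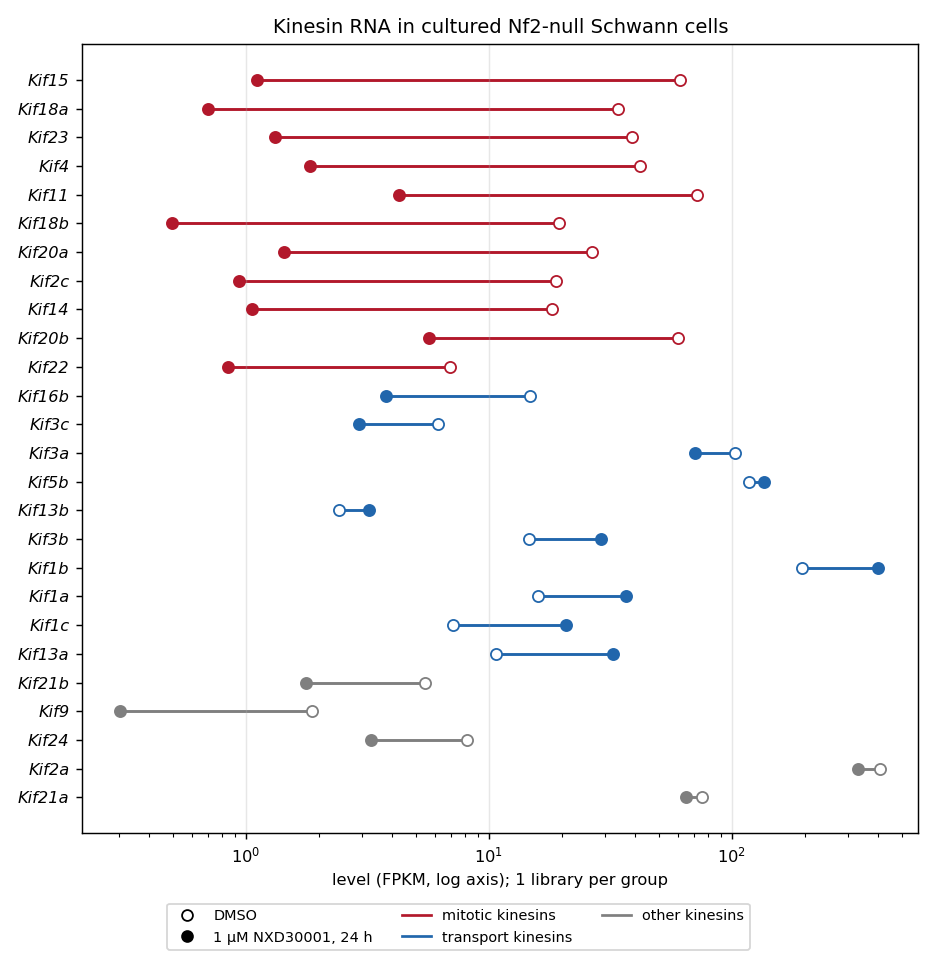
Levels of the 26 kinesins measured in culture, in FPKM on a log axis; open circles are the DMSO library, filled circles the NXD30001 library, and the line colour gives the class. The 11 mitotic kinesins moved from between 6.95 and 71.8 FPKM to between 0.495 and 5.69 FPKM, whereas 7 of 10 transport kinesins lay to the right of their DMSO level.

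Transport kinesins of the kinesin-3 group had the largest positive differences in culture. Kif13a, which carries recycling endosomes, was at 10.7 and 32.3 FPKM (difference 1.51, implied error 0.68). Kif1c, a carrier of dense core vesicles and integrins, was at 7.15 and 20.8 FPKM (1.42, implied error 0.62), and Kif1a, the carrier of synaptic vesicle precursors in neurons, at 15.9 and 36.7 FPKM (1.16, implied error 0.71). Kif1b (ENSMUSG00000063077, chromosome 4 from 148550428 to 148681802, mm9), a carrier of mitochondria and vesicle precursors, was at 194 and 402 FPKM (1.04, implied error 0.52) and became the most abundant kinesin. The authors' deposited table called none of the transport kinesins higher, while it called 2.75% of measured genes higher. These 4 differences were between 1.62 (Kif1a) and 2.28 (Kif1c) times their implied error. Relative to the median of all genes 5 transport kinesins were at least 2-fold higher, against 17.8% of measured genes. The loci of Kif13a, Kif13b, Kif16b, Kif5b, Kif3a and Kif3c are each given for another row too. Of the 4 measured transport kinesins left without them, 3 were at least 2-fold higher, against 12.6% of measured genes.

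Markers of other cell types stood beside these values. The neuron markers, 3 of 12 measured in culture, summed to 81.4 and 35.0 FPKM, with Eno2 at 57.6 and 21.7 FPKM and Syp at 18.04 and 7.64 FPKM, and Elavl4 and Snap25 were listed at 0 in both culture libraries. Of the 10 measured Schwann cell markers 7 were lower and 3 higher (median -1.01), with Mbp, a myelin protein gene, at 12.1 and 88.1 FPKM. Their part in the kinesin values was not tested.

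Not all kinesin-3 members were higher. Kif16b, which moves early endosomes, was at 14.8 and 3.77 FPKM (-1.73, implied error 0.57). It was the only transport kinesin called lower in the authors' deposited table, against 7.14% of measured genes. Kif13b, a regulator of myelination in Schwann cells, was low in both libraries, at 2.43 and 3.21 FPKM (0.30, implied error 0.89).

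The measured kinesin-1 and kinesin-2 heavy chains lay within 2-fold on the log2(FPKM + 1) scale. Kif5b, the ubiquitous kinesin-1, was at 118 and 136 FPKM (0.20, implied error 0.69), and its neuronal relatives Kif5a and Kif5c stayed under 1 FPKM in culture. Klc1, a light chain that couples kinesin-1 to cargo, was at 14.2 and 52.3 FPKM (1.81, implied error 0.47). The subunits of the kinesin-2 trimer, the motor of cilium assembly, differed in opposite directions. Kif3a was at 103 and 70.8 FPKM (-0.53, implied error 0.40) and its partner Kif3b at 14.7 and 28.9 FPKM (0.93, implied error 0.62), so the Kif3a level was 7.01 times that of Kif3b with DMSO and 2.45 times with NXD30001. The third subunit gene, Kifap3, which is not named in the Kif series, was at 31.5 and 24.2 FPKM, and the alternative partner Kif3c at 6.18 and 2.93 FPKM (-0.87, implied error 0.84).

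Cargo adaptors and other microtubule motors gave no such division. Of 15 cargo adaptors 12 were measured in culture, with 2 at least 2-fold higher and 1 lower (median 0.00), against 12.6% and 24.8% of measured genes. Besides Klc1, Arl8a, a lysosomal GTPase, was at 24.1 and 77.3 FPKM, Plekhm2, which links it to kinesin-1, at 5.83 and 0.856 FPKM, and Trak1, a mitochondrial adaptor, at 25.6 and 14.8 FPKM. Of 18 dynein and dynactin genes 16 were measured, with 2 at least 2-fold lower and 1 higher (median -0.16), against the same shares. Dctn1, the large dynactin subunit, was at 5.69 and 1.00 FPKM, and of the dynein regulators Nde1 was at 28.2 and 8.19 FPKM and Ndel1 at 8.49 and 20.7 FPKM. Dync1li2, a dynein light intermediate chain, was at 41.5 and 71.7 FPKM.

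Tubulins and cilium genes were also read. Of 12 tubulins 11 were measured in culture, with 2 at least 2-fold higher and 1 lower (median 0.37), against 12.6% and 24.8% of measured genes. Tuba1b and Tuba1a, near-identical alpha tubulins whose reads may be split between them, had 209 and 832 FPKM in the case of Tuba1b and 385 and 1159 FPKM in that of Tuba1a. Tubb2b was at 190 and 83.1 FPKM, and Tuba4a was low, at 0.152 and 1.11 FPKM. Of 14 intraflagellar transport genes 11 were measured, 9 of them below 0 (median -0.49), as were 7530 of the 12676 measured genes. Ift140 was at 5.46 and 0.119 FPKM, Ift172 at 4.57 and 1.36 FPKM, Ift80 at 26.4 and 12.8 FPKM and Ift20 at 161 and 496 FPKM.

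The kinesins of neither class were lower or level in culture. Kif2a, a kinesin-13 that trims microtubules at spindle poles and in growing neurites, was the most abundant kinesin with DMSO, at 409 FPKM, and was at 332 FPKM with NXD30001 (-0.30, implied error 0.41). Kif21a, which restrains microtubule growth at the cell cortex, was at 75.3 and 64.6 FPKM (-0.22, implied error 0.44). Kif21b, its neuronal and immune cell relative, was at 5.46 and 1.76 FPKM (-1.22, implied error 0.73). Kif24, which keeps cilia from forming on centrioles, was at 8.13 and 3.27 FPKM (-1.10, implied error 0.66), and Kif9, a kinesin of motile cilia, at 1.87 and 0.304 FPKM (-1.14, implied error 0.73, called lower in the authors' deposited table). These 3 were past 2-fold, but relative to the median of all genes none of the 5 was (18.4% of measured genes were 2-fold lower on that scale).

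The makeup of the kinesin RNA pool was read from summed levels. Mitotic kinesins held 28.7% of the summed kinesin FPKM with DMSO and 1.70% with NXD30001, and transport kinesins 35.1% and 63.6%. In tumours the mitotic share was 22.6% with vehicle and 22.9% with NXD30001. These shares depend on the class given to Kif2a, which alone held 29.6% of the sum in DMSO cells. With Kif2a counted as mitotic and Kif21a and Kif21b as transport, the mitotic share was 58.3% and 30.4% in culture and 33.9% and 30.7% in tumours.

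**Figure D2:**
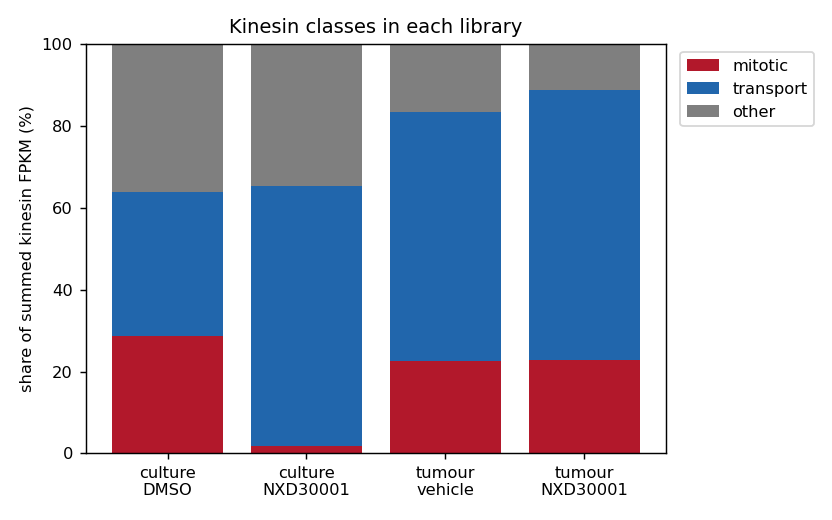
Share of the summed FPKM of all measured kinesins held by each class, in percent, with 1 bar for each of the 4 libraries. The mitotic share is 28.7% and 1.70% in the culture libraries and 22.6% and 22.9% in the tumour libraries.

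In tumours, mitotic kinesins lay close to their vehicle levels. None of the 11 was at least 2-fold lower (6.93% of measured genes were) and 1 was at least 2-fold higher (7.32% of measured genes were), with a median difference of 0.11. The authors' deposited table called none of the 11 in either direction, against 2.45% of measured genes called lower and 3.14% called higher. The sum over the 11 was 110.4 FPKM with vehicle and 117 FPKM with NXD30001. The proliferation markers, all 8 measured, summed to 378 and 373 FPKM, with 4 below 0 and 4 above, among them Top2a at 120.5 and 129.9 FPKM and Pcna at 61.5 and 68.2 FPKM. All 11 mitotic kinesins had the larger absolute difference in culture. So did 7 of the 9 transport and 2 of the 4 other kinesins measured in both tables. Differences were wider in culture for genes at large, with 24.8% of measured genes 2-fold lower and 12.6% 2-fold higher there. The share of all genes with the larger difference in culture was not taken.

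Single mitotic kinesins lay on both sides of 0. Kif20a was the most abundant of the 11, at 24.1 and 21.0 FPKM (difference -0.19, implied error 0.32). Kif11 was at 8.85 and 8.39 FPKM (-0.07, implied error 0.35), Kif23 at 12.4 and 11.96 FPKM (-0.04, implied error 0.34) and Kif4 at 9.68 and 8.82 FPKM (-0.12, implied error 0.36). Kif14 had the most negative difference, at 3.51 and 2.20 FPKM (-0.50, implied error 0.38). Kif22 was at 16.4 and 17.9 FPKM (0.11, implied error 0.34), Kif2c at 13.8 and 17.1 FPKM (0.29, implied error 0.35) and Kif18b at 13.8 and 16.1 FPKM (0.21, implied error 0.44). Each of these differences was under 1.5 times its implied error, although the statistic of Kif14 in the authors' deposited table was 1.77.

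Kif15, Kif20b and Kif18a had the most positive differences of the 11. Kif15 was at 4.45 and 6.33 FPKM (0.43, implied error 0.39) and Kif20b at 2.76 and 4.12 FPKM (0.45, implied error 0.39). Kif18a, the only one of the 11 past 2-fold, was at 0.681 and 2.66 FPKM (1.12, implied error 0.62), with a q of 0.0516 in the authors' deposited table, just outside its threshold of 0.05. Its level is low and its locus is also given for Mett5d1. Cenpe was higher as well, at 3.06 and 8.07 FPKM (1.16, implied error 0.36), and the authors' deposited table called it higher. The other members of its list, Kifc1, Kifc2 and Kifc3, were at 12.4 and 10.8, at 3.04 and 4.99 and at 25.3 and 42.4 FPKM. Of the mitotic partners 15 were measured, 12 below 0 and none past 2-fold (median -0.25). Of all 15550 measured genes 8197 lay below 0, 6.93% were 2-fold lower and 7.32% were 2-fold higher. Nusap1 was at 20.8 and 13.4 FPKM, Cit at 36.4 and 24.4 FPKM, Racgap1, the partner of Kif23, at 52.9 and 39.3 FPKM and Cdc2a, the mitotic kinase Cdk1, at 169 and 131 FPKM. Among 18 measured promoter regulators, 1 was 2-fold lower and 1 higher (median -0.08), against 6.93% and 7.32% of measured genes. E2f2 was at 3.91 and 1.15 FPKM, E2f3 at 7.24 and 19.6 FPKM, E2f1 at 23.6 and 36.6 FPKM and Lin37, a MuvB subunit, at 16.7 and 25.7 FPKM.

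**Figure D3:**
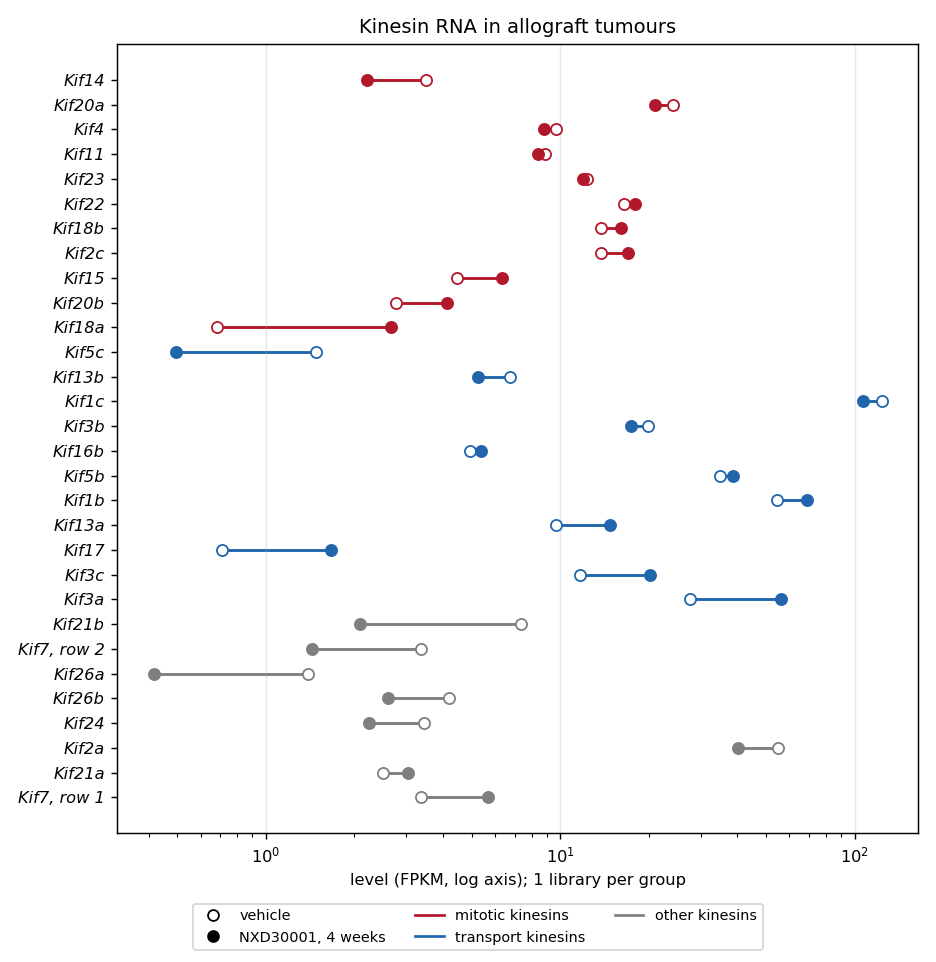
Levels of the 30 kinesins measured in tumours, in FPKM on a log axis; open circles are the vehicle library, filled circles the NXD30001 library, and the line colour gives the class. Kif7 has 2 rows in the deposited table, of which row 1 is ENSMUSG00000050382 and row 2 is ENSMUSG00000030547. Most circle pairs lie close together, and the widest pairs above 5 FPKM are those of Kif21b and Kif3a.

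Transport kinesins in tumours lay within 2-fold on the log2(FPKM + 1) scale, with Kif3a at the upper end. Of 11 measured, 7 were above 0 and 4 below, none was past 2-fold in either direction, and the median was 0.15. Of all 15550 measured genes 7353 lay above 0, 6.93% were 2-fold lower and 7.32% were 2-fold higher. Without the added 1, Kif3a was 2.03-fold and Kif17 2.34-fold higher, and Kif5c was 2.98-fold lower, the last 2 at low levels. Kif3a (ENSMUSG00000018395, chromosome 11 from 53380881 to 53432171, mm9) was at 27.7 and 56.3 FPKM (0.997, implied error 0.25). It was the only Kif gene called higher there in the authors' deposited table (q 0.00206), against 3.14% of measured genes. Relative to the median of all genes it was the 1 transport kinesin past 2-fold, against 7.61% of measured genes. Its locus is also given for Il4. Kif3c was at 11.7 and 20.1 FPKM (0.74, implied error 0.31), Kif3b at 19.8 and 17.4 FPKM (-0.18, implied error 0.30) and Kifap3 at 22.97 and 22.8 FPKM. The Kif3a level was 1.40 times that of Kif3b with vehicle and 3.23 times with NXD30001, whereas in culture that ratio was lower in the treated library.

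Markers of the tumour cells and of other cells differed between these libraries too. All 10 measured Schwann cell markers were at least 2-fold higher in the treated tumour, against 7.32% of measured genes, with sums of 157 and 569 FPKM, led by Sox10 at 47.0 and 140 FPKM and Foxd3 at 24.7 and 116 FPKM. The neuron markers, 6 of 12 measured, summed to 279 and 449 FPKM with 5 higher and 3 of them past the same limit, with Eno2 at 172 and 256 FPKM and Stmn2 at 57.9 and 105 FPKM, while Elavl4, Nefh, Snap25 and Syt1 were listed at 0 in both tumour libraries. The endothelial markers (8 of 8 measured, all lower) summed to 91.7 and 37.2 FPKM, with Pecam1 at 24.8 and 10.5 FPKM and Esam at 16.7 and 11.7 FPKM. The macrophage markers (8 of 8, all lower) summed to 388 and 210 FPKM, with Csf1r at 89.5 and 57.5 FPKM and Cd68 at 85.4 and 50.5 FPKM. The part of these cell types in the kinesin values was not tested.

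Kif1c was the most abundant kinesin of both tumour libraries, at 124 and 107 FPKM (-0.22, implied error 0.19), and Kif1b was at 54.7 and 68.9 FPKM (0.33, implied error 0.21). Kif13a was at 9.70 and 14.8 FPKM (0.56, implied error 0.27), Kif13b at 6.77 and 5.27 FPKM (-0.31, implied error 0.36) and Kif16b at 4.94 and 5.40 FPKM (0.11, implied error 0.35). Kif5b was at 34.9 and 38.8 FPKM (0.15, implied error 0.30). Kif5c was at 1.48 and 0.495 FPKM, where the table's statistic implies an error of 11.6, and Kif17, a kinesin-2 of dendrites and cilia, at 0.710 and 1.66 FPKM with an implied error of 3.19, and both errors exceed the differences. Kif1a, at 0.0803 and 0.800 FPKM, did not reach the minimum in tumours.

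The light chains Klc1 and Klc2 had the largest differences among the cargo adaptors in tumours. All 15 cargo adaptors were measured, with 2 at least 2-fold higher, against 7.32% of measured genes, and none lower (median 0.15). Klc1 was at 125 and 295 FPKM (1.24, implied error 0.36), higher in the treated library as in culture, and Klc2 was at 13.9 and 30.3 FPKM (1.08, implied error 0.32). Both were called higher in the authors' deposited table, against 3.14% of measured genes, and both have a locus that is given for another row. Of the other light chains Klc3 was at 7.58 and 5.77 FPKM (-0.34) and Klc4 at 11.5 and 12.8 FPKM (0.15). Arl8a was at 94.1 and 132 FPKM and Mapk8ip1, a scaffold that binds light chains, at 12.8 and 18.3 FPKM. None of 16 dynein and dynactin genes was past 2-fold (median 0.04), against 6.93% of measured genes lower and 7.32% higher. Dynll1 was at 453 and 334 FPKM and Nde1 at 56.6 and 77.3 FPKM. Dynlt3 was at 50.02 and 61.4 FPKM and Ndel1 at 67.3 and 55.1 FPKM. None of 12 intraflagellar transport genes was past 2-fold either (median 0.02), against the same shares. Ift122 was at 15.2 and 27.97 FPKM and Ift74 at 18.4 and 32.1 FPKM. Ift57 was at 29.95 and 48.2 FPKM and Ift88 at 7.28 and 4.68 FPKM. Of 12 tubulins 1 was 2-fold higher and 1 lower (median -0.05), against 7.32% and 6.93% of measured genes. Tubb4, a beta tubulin, was at 0.198 and 4.42 FPKM, Tuba4a at 23.6 and 8.18 FPKM, Tubb2b at 110 and 140 FPKM and Tubb3 at 11.4 and 8.82 FPKM.

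Kif21b stood apart among the kinesins of neither class. Kif21b (ENSMUSG00000041642, chromosome 1 from 138027966 to 138074591, mm9) was at 7.33 FPKM in the vehicle tumour and 2.09 FPKM in the treated one (-1.43, implied error 0.31). It was the only kinesin called lower there in the authors' deposited table (q 5.87e-07), against 2.45% of measured genes. Relative to the median of all genes it stayed past 2-fold, against 6.52% of measured genes. Only 3.56% of measured genes had a more negative difference. Kif21b was lower in the treated library in culture too, but there it was not called. In culture 18.9% of measured genes had a more negative difference, and relative to the median of all genes it was within 2-fold (-0.97). Of the 8 other kinesins measured in tumours, 6 were below 0 and 1 was 2-fold lower (median -0.49). Of all 15550 measured genes 8197 lay below 0 and 6.93% were 2-fold lower. Kif2a was at 55.1 and 40.03 FPKM (-0.45, implied error 0.46), Kif24 at 3.46 and 2.25 FPKM (-0.46, implied error 0.59) and Kif21a at 2.49 and 3.04 FPKM (0.21, implied error 0.49). Kif26b, a kinesin of kidney development, was at 4.20 and 2.60 FPKM (-0.53, implied error 0.41) and Kif26a, which restrains RET signalling in enteric neurons, at 1.39 and 0.416 FPKM (-0.76, implied error 0.84).

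Kif7, the kinesin that relays Hedgehog signals at the tip of the cilium, has 2 rows in each table with opposite differences in tumours. The row with ID ENSMUSG00000050382 (chromosome 7 from 86805082 to 86853547, mm9) was at 3.37 and 5.69 FPKM (0.62, implied error 0.49). The row with ID ENSMUSG00000030547 (chromosome 7 from 86855272 to 86858777, mm9), an ID that GENCODE M21 does not hold, was at 3.35 and 1.44 FPKM (-0.84, implied error 1.15). Neither difference was past 2-fold on the log2(FPKM + 1) scale, and both rows were under 1 FPKM in culture.

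Of the 24 kinesins measured in both tables, 11 were mitotic, 9 transport and 4 other. Among the mitotic kinesins, 5 were lower in both settings and 6 were lower in culture and higher in tumours. Most of their tumour differences were smaller than their implied errors, so that split of signs is uncertain. The matching shares over all genes were not taken. Among the transport kinesins, Kif13a, Kif1b and Kif5b were higher in both, 3 (Kif16b, Kif3a and Kif3c) were lower in culture and higher in tumours, and 3 (Kif1c, Kif3b and Kif13b) the other way round. Among the other kinesins, 3 were lower in both and 1, Kif21a, was lower in culture and higher in tumours. The tables were made separately, so only differences and not levels are set side by side.

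**Figure D4:**
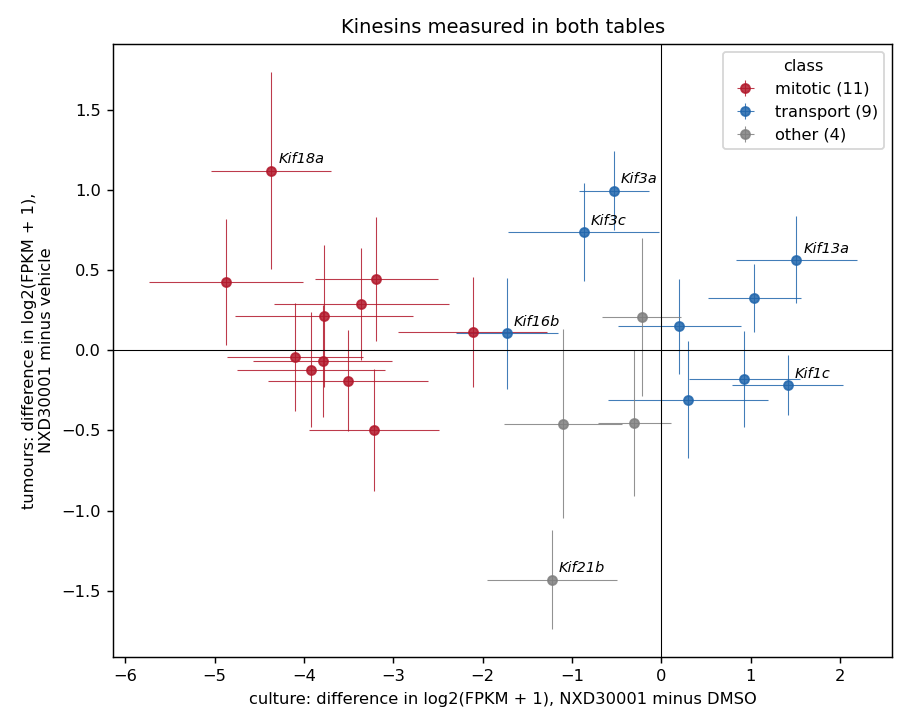
Differences in log2(FPKM + 1), treated minus untreated, of the 24 kinesins measured in both tables, with culture on the horizontal and tumours on the vertical axis; colours give the class and bars 1 implied error (SE) from the authors' deposited tables, without biological spread. Mitotic kinesins lie between -4.88 and -2.11 in culture and between -0.50 and 1.12 in tumours.

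The kinesins that were not measured are accounted for by level. In culture 12 rows had status OK but stayed under 1 FPKM, and 6 of them (Kif2b, Kif6, Kif12, Kif19a, Kif26a and Kif26b) were listed at 0 in both libraries. The remaining 6 were Kif5a, Kif5c, Kif17, Kif27 and both rows of Kif7. In tumours 7 rows with status OK stayed under 1 FPKM, namely Kif1a, Kif2b, Kif5a, Kif6, Kif12, Kif19a and Kif27, and Kif9 had status LOWDATA. Just inside the minimum stood Kif9 in culture (1.87 and 0.304 FPKM) and Kif26a in tumours (1.39 and 0.416 FPKM). Just outside it stood the second Kif7 row in culture, at 0.736 FPKM in DMSO cells and at 0 in treated ones, and Kif1a in tumours (0.0803 and 0.800 FPKM).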

How the data were processed

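Illumina libraries were made from total RNA of cells and tumours, per the labels. Tools named in the submitters' processing notes are Cuffdiff, Cufflinks 1.0.2, TopHat 1.2.0 and CASAVA, with build mm9. No source used here gives the strand setting, and overlapping genes cannot be told apart. The authors deposited levels in FPKM, and per the file headers also the natural log of the fold, a test statistic and a q-value (both treated as scores) and a p-value, all from their own comparison. Called genes had a q up to 0.0499, and uncalled q reached 2.05. Deposited starts were taken to count from 0 and 1 was added, since the span equalled the GENCODE M21 gene length in 10580 of 19955 loci and that length less 1 in 268.

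Groups came from the treatment labels, although the sample type label calls all 4 samples cultured cells. Each group held 1 library, so no test was run. Rows of status OK with at least 1 FPKM in either library were compared on log2(FPKM + 1), and partner and marker lists used the highest row per symbol. The implied error is the natural log fold over the statistic, put on the log2 scale. The kinesins, classes and lists were chosen with earlier results of these data known. Named genes were every measured kinesin, the 4 members of each partner list with the largest absolute difference, and the 2 most abundant markers of each cell type, of which 1 in culture is not reported here. Kifap3 in both tables, and Klc3 and Klc4 in tumours, were named after their values were seen. Promoters came from RefSeq, and the last 30 bases of 29 of the 35 lay in a sense GENCODE M21 transcript of the same symbol, against 0 antisense. The start equalled the RefSeq gene start for 10 of the 35, so distances are from each promoter's own start. Alternatives were another pseudocount, other minimum levels, centring, members without shared loci, other classes and a 1.5-fold limit. Scripts used Python 3.11.15, pandas 2.3.3 and numpy 2.4.6 and were tested on simulated data.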

Additional observations from a re-analysis of the deposited data

Results flagged for a closer look

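Of the kinesins, 3 were singled out because their treated and untreated libraries differed in opposite directions in culture and in tumours, by at least 0.5 on the log2(FPKM + 1) scale in each. The difference between the settings was not tested, since each group has 1 library. Kif18a differed by -4.37 in culture and 1.12 in tumours, Kif3a by -0.53 and 0.997, and Kif3c by -0.87 and 0.74. In all, 13 of the 24 kinesins measured in both tables had opposite signs. The share of all genes with opposite signs was not taken, so this count is not read as a trait of kinesins. The loci of all 3 genes are also given for another row.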

How the results depend on the processing

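Of 144 values recomputed under the alternatives, 118 were counted as close to the reported value, 24 moved and 2 changed sign. A median counted as close if it kept its sign and shifted by less than the median implied error of its class. For the gap between class medians the median implied error of all measured kinesins was used. A count was close if unchanged or, where neither was 0, within a factor of 1.5. A value counted as close could therefore still shift. Some could not move, such as the gap between class medians under centring. The transport median in culture, 0.61 as reported, was 0.20 with no minimum level and 0.93 with a minimum of 5 FPKM. It was 0.25 with Kif2a counted as mitotic and Kif21a and Kif21b as transport. It was highest without members whose locus is given for another row. All of these were counted as close. The mitotic median in culture stayed negative under all 6 settings that gave it. Both sign changes came from leaving out kinesins whose locus is given for another row. The transport median in tumours became -0.18 with 3 members left, and the gap between the mitotic and transport medians in tumours, -0.03 as reported, became 0.34. That setting also left 6 mitotic kinesins at least 2-fold lower in culture (all 6 that remained), 0 transport kinesins lower there and 0 mitotic kinesins higher in tumours. With a pseudocount of 0.1, transport kinesins past 2-fold were 2 lower in culture and 1 lower and 2 higher in tumours, and 3 other kinesins were lower in tumours. With centring on the median of all genes, 0 other kinesins were 2-fold lower in culture and 1 transport kinesin was 2-fold higher in tumours. With a minimum of 5 FPKM, 0 mitotic kinesins were 2-fold higher in tumours. With a limit of 1.5-fold, 2 transport kinesins were lower in culture, 1 was lower and 3 were higher in tumours, and 3 other kinesins were lower and 1 higher in tumours. With Kif2a counted as mitotic and Kif21a and Kif21b as transport, 2 transport kinesins were lower in culture, 1 in tumours, and 0 other kinesins were lower in tumours, and the mitotic share of kinesin FPKM was 58.3% and 30.4% in culture and 33.9% and 30.7% in tumours. Without the most abundant mitotic and transport kinesin that share was 25.4% and 25.0% (24.99 before rounding) in tumours. The cause of these moves is the changed set of members, scale or limit. No paired analysis was possible because each group has 1 library. Levels near 1 FPKM are limited by depth.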
